A study of Mus musculus with 10 samples.

Results

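The genes described here are 10 transcription factors that direct or mark dendritic cell fate: Irf4, Irf8, Zbtb46, Bcl11a, Id2, Id3, Batf3, Klf4, Zeb2 and Tcf4. They were given as a list of symbols. Each of the 10 was represented by a single probe set among the 19938 genes measured. Type 2 conventional dendritic cells (cDC2) had been sorted from mouse spleen, and their RNA was read on 10 one-colour arrays. WT mice were left untreated (2 arrays) or were analysed 24 hours after an intraperitoneal dose of 200000000 sheep red blood cells (SRBC) (3 arrays). CD11c-Cre+ Notch2f/f mice, labelled Notch2-11cKO, were likewise untreated (2 arrays) or given SRBC (3 arrays). The Cre is driven by CD11c and so can act in any cell that expresses CD11c. The floxed gene encodes a receptor through which splenic cDC2 receive Notch signals. WT mice are not said to carry Cre, and no ages are given. The labels do not tie arrays to separate mice, so the p-values measure the spread between arrays, which may be technical in part.

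Dendritic cell fate is set by transcription factors that act in opposing or cooperating sets. IRF8 with its partner BATF3 drives type 1 conventional dendritic cells (cDC1), whereas IRF4 is needed for functions and migration of cDC2. E proteins such as TCF4 (E2-2) drive plasmacytoid dendritic cells (pDC), the inhibitors ID2 and ID3 bind E proteins and keep them off DNA, and ZEB2 is a repressor that acts against ID2. ZBTB46 marks conventional dendritic cells, BCL11A supports early dendritic cell and pDC programs, and KLF4 is needed for a subset of cDC2 and for monocytes.

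Promoter stretches of 4 of the factors are printed because these 4 differed most between untreated genotypes among the genes called, and because Notch receptors act through the DNA-binding protein RBPJ. Each is the 250 bases before a RefSeq start site, in build GRCm38.p6, written 5′ to 3′ on the strand of the gene. Capitals mark matches, on either strand, to the RBPJ core TGGGAA, the E-box CAGGTG that E proteins and ZEB2 can bind, or the AP-1 site TGANTCA that BATF and JUN proteins can bind. The windows are chr11:24080445-24080694 on the plus strand for Bcl11a, chr8:120738389-120738638 on the plus strand for the downstream of 2 start sites of Irf8, chr4:136143572-136143821 on the plus strand for Id3 and chr2:45117443-45117692 on the minus strand for the first of 4 start sites of Zeb2.
Bcl11a: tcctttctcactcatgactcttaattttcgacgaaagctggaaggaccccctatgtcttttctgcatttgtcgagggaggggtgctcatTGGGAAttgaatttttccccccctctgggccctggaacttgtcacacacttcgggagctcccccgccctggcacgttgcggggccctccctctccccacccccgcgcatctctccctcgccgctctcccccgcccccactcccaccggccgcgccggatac
Irf8: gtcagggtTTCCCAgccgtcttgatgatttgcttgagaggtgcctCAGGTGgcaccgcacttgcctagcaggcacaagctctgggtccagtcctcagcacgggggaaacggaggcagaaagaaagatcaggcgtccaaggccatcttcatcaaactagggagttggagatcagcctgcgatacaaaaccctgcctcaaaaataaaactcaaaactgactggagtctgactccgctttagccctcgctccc
Id3: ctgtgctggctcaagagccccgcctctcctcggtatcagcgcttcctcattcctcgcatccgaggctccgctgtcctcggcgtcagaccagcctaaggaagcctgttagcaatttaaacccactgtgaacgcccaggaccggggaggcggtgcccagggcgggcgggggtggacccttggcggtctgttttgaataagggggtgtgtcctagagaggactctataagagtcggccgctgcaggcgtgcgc
Zeb2: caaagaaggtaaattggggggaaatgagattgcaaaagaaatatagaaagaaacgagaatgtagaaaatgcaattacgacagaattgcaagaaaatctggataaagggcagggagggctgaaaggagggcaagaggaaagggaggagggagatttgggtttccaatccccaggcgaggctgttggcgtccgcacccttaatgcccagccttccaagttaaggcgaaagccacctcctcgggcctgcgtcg

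The RBPJ core occurred in 2 of the 13 start-site windows of the 9 factors searched, at Bcl11a (first base at -161 from the start site) and the downstream start site of Irf8 (-242). The same 6 letters occurred in 21.6% of all 32851 promoter windows of this length. CAGGTG was found in 2 of the 13, at Irf8 (-205) and Zbtb46 (-238), and in 17.2% of all windows. TGANTCA was found in 2 of the 13, at Zbtb46 (-61) and at the last start site of Zeb2 (-189 and -132), and in 6.75% of all windows. The motifs do not overlap one another in these windows, and the printed Id3 and Zeb2 stretches hold none of them. The upstream start site of Irf8, not printed, also holds none, so the printed Irf8 window is the one with matches. These are matches of letters and say nothing of binding.

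Between untreated genotypes 5 of the 10 factors passed the threshold, a limma adjusted p below 0.05 over all genes. Zeb2, Id3, Irf8 and Tcf4 were higher in Notch2-11cKO and Bcl11a was lower. The share over all genes was 5.11%, with 2.95% higher and 2.16% lower. Once SRBC had been given, Zeb2, Id3 and Tcf4 were higher in Notch2-11cKO and none was lower, where 5.32% of all genes passed (3.36% higher, 1.96% lower). The response to SRBC in WT cells held 3 factors, with Irf8 and Id2 higher and Bcl11a lower, against 3.79% of all genes (1.82% higher, 1.97% lower). In Notch2-11cKO cells Id3 alone changed, and it fell; 0.306% of all genes passed there (0.14% higher, 0.166% lower). The difference between the responses (interaction) passed for none of the 10 and for 0.0201% of all genes (0.01% in each direction), although 5 of the 10 had an unadjusted limma p below 0.05. All 10 factors lay above the median level of the genes, so brighter genes are a closer background. With only the 9969 genes above the median in the fit, 1013 passed between untreated genotypes, beside 6 of the factors. After SRBC 1130 passed between genotypes, beside 3 factors. The WT response held 920, beside 3 factors, the Notch2-11cKO response 76, beside 1, and the interaction 2, beside 0. The genotype comparisons share their arrays with the SRBC comparisons and are not independent of them.

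**Figure D1:**
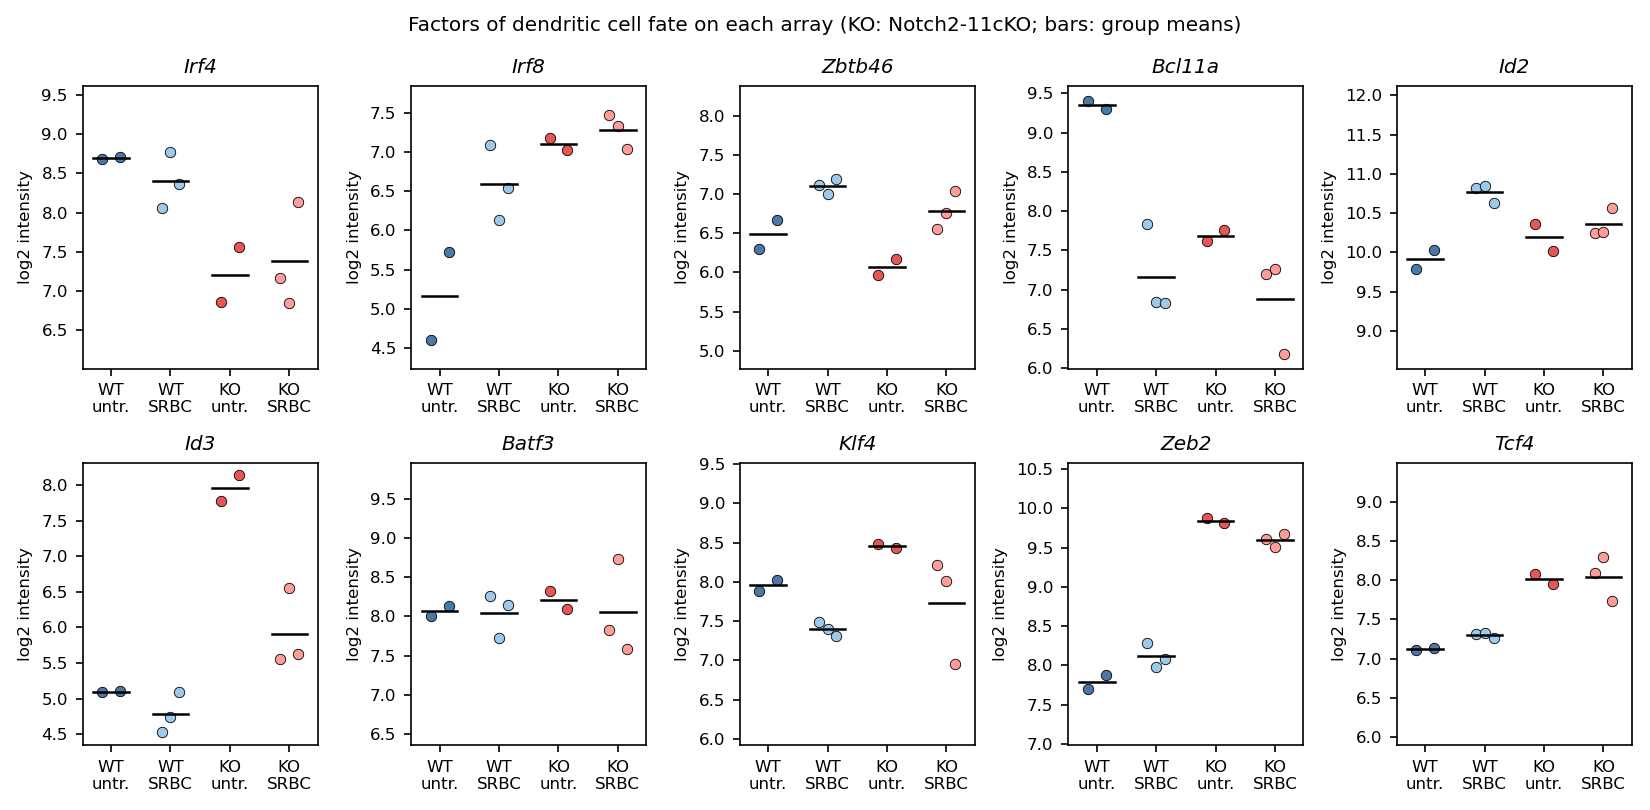
Log2 intensity (y axis) of each of the 10 factors on each array, by group on the x axis; points are arrays and bars are group means (2 untreated and 3 SRBC arrays per genotype). Zeb2 and Tcf4 separate the genotypes on every array, Id3 is highest in untreated Notch2-11cKO, and Bcl11a is highest in untreated WT.

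The values are log2 of the intensity, and each difference is given with its standard error from limma. A level of one probe set cannot be set against that of another. Arrays average the sorted cells, so a changed share of a cell type and a changed amount of RNA per cell cannot be told apart. Before the results, 2 arrays stood apart: over the 9969 brighter genes, WT SRBC 1 correlated with the other arrays of its group at 0.929 and 0.928 (0.984 between those), and Notch2-11cKO SRBC 3 at 0.947 and 0.936 (0.972 between those). Over the 10 arrays the cDC2 markers Itgax and Sirpa read 9.02 to 10.5 and 9.51 to 10.7 (log2), and Clec4a4 and Esam 3.23 to 8.13 and 3.99 to 5.995. Markers of other dendritic cells also spanned a range, with Xcr1 of cDC1 at 3.81 to 5.59, Wdfy4 of cDC1 at 7.81 to 10.4, Siglech of pDC at 4.74 to 5.26 and Bst2 of pDC at 7.05 to 8.97. The table holds no background values, so these levels do not settle which cells the sort held. Notch2 itself read 8.13 ± 0.02 (SD, n = 2) in untreated WT and 8.27 ± 0.14 (SD, n = 2) in untreated Notch2-11cKO, and 7.26 ± 0.28 and 7.61 ± 0.37 (SD, n = 3 each) after SRBC. The single probe set may lie outside the deleted part and cannot serve as a check of the genotype.

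Zeb2 encodes a zinc-finger repressor of the E-box, and it had the smallest adjusted p of the 10 in both genotype comparisons. It read 7.69 and 7.88 in untreated WT, 8.28, 7.98 and 8.08 in WT SRBC, 9.88 and 9.81 in untreated Notch2-11cKO, and 9.61, 9.51 and 9.68 in Notch2-11cKO SRBC. Every Notch2-11cKO array lay above every WT array. Zeb2 was 4.16-fold higher in untreated Notch2-11cKO (log2 2.06 ± 0.19, adjusted p = 8.26e-05) and 2.80-fold higher after SRBC (1.48 ± 0.15, adjusted p = 0.000189). SRBC itself moved it by 0.33 ± 0.17 in WT (95% interval -0.04 to 0.70) and by -0.24 ± 0.17 in Notch2-11cKO (-0.62 to 0.13), neither past the threshold. Both genotype calls were made with each of the 10 arrays left out in turn, with adjusted p no higher than 0.00296 without treatment and 0.00181 after SRBC.

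Id3 encodes an inhibitor of E proteins. It read 5.09 and 5.11 in untreated WT, 4.53, 4.74 and 5.09 in WT SRBC, 7.77 and 8.14 in untreated Notch2-11cKO, and 5.56, 6.55 and 5.63 in Notch2-11cKO SRBC. The order of the groups was thus untreated Notch2-11cKO, Notch2-11cKO SRBC and then both WT groups, which did not differ past the threshold (-0.31 ± 0.28 for the WT response, adjusted p = 0.655). The geometric mean intensity of Id3 was 34.3 in untreated WT and 27.6 in WT SRBC, near the array medians of 29.5 to 31.7. Id3 was 7.23-fold higher in untreated Notch2-11cKO than in untreated WT (2.85 ± 0.31, adjusted p = 0.000257), the largest difference of the 10 in any of the 4 comparisons of groups. After SRBC it fell in Notch2-11cKO by 2.04 ± 0.28 (4.11-fold, adjusted p = 0.0188) and was then 2.18-fold above WT SRBC (1.13 ± 0.25, adjusted p = 0.0246). The untreated difference passed with each array left out (adjusted p at most 0.0057). The fall in Notch2-11cKO was lost without Notch2-11cKO untreated 1 (adjusted p = 0.173), untreated 2 (0.154) or SRBC 1 (0.0579). The difference after SRBC was lost without WT SRBC 1 (0.0579), WT SRBC 2 (0.0799) or Notch2-11cKO SRBC 2 (0.0521). With only the groups compared in the fit, both were lost (0.0792 and 0.0669). The response differed between genotypes by -1.73 ± 0.40, which did not pass (adjusted p = 0.299) and passed without both arrays that stood apart (-1.71, adjusted p = 0.0406).

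Id2 encodes an inhibitor of E proteins that cDC1 need. It read 9.79 and 10.03 in untreated WT, 10.82, 10.85 and 10.63 in WT SRBC, 10.37 and 10.02 in untreated Notch2-11cKO, and 10.25, 10.26 and 10.56 in Notch2-11cKO SRBC. Arrays of WT SRBC were above all others, and untreated Notch2-11cKO overlapped both of the other groups. Id2 rose by 0.85 ± 0.17 after SRBC in WT (1.81-fold, adjusted p = 0.023). In Notch2-11cKO the change was 0.16 ± 0.17 (95% interval -0.22 to 0.55), and the interaction of -0.69 ± 0.25 did not pass (adjusted p = 0.624). This rise no longer passed without WT untreated 1 (adjusted p = 0.262), WT untreated 2 (0.0999) or WT SRBC 2 (0.0775). Between genotypes the difference was 0.28 ± 0.19 in untreated cells (adjusted p = 0.613) and -0.41 ± 0.16 after SRBC (0.189), neither past the threshold.

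Tcf4 encodes the E protein that specifies pDC. Its arrays read 7.11 and 7.14 in untreated WT, 7.32, 7.32 and 7.26 in WT SRBC, 8.08 and 7.95 in untreated Notch2-11cKO, and 8.09, 8.29 and 7.74 in Notch2-11cKO SRBC. All Notch2-11cKO arrays exceeded all WT arrays, by 1.86-fold without treatment (0.90 ± 0.21, adjusted p = 0.0309) and 1.67-fold after SRBC (0.74 ± 0.17, adjusted p = 0.0286). SRBC changed it by 0.18 ± 0.19 in WT and 0.02 ± 0.19 in Notch2-11cKO, neither past the threshold. Both genotype calls lay close to the threshold. In untreated cells the call did not hold without WT untreated 1 (adjusted p = 0.195) or 2 (0.165), Notch2-11cKO untreated 1 (0.215) or 2 (0.118), and WT SRBC 2 (0.0513) or 3 (0.0505). The call after SRBC was lost without WT untreated 1 (0.0558) or 2 (0.0555), WT SRBC 2 (0.082) or 3 (0.0911), and Notch2-11cKO SRBC 1 (0.098) or 2 (0.0977). Quantile normalization also ended both (adjusted p = 0.063 and 0.0631), and the call after SRBC was lost with only the groups compared (0.101).

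Markers of pDC, the cells known for high Tcf4, were measured beside it. Of 8 pDC markers 2 were higher in untreated Notch2-11cKO (Cox6a2 by 1.38 ± 0.29 and Smim5 by 0.91 ± 0.19) and 2 after SRBC (Cox6a2 by 1.66 ± 0.24 and Bst2 by 1.48 ± 0.23), and none was lower. Their median difference was 0.37 and 0.33, against -0.02 over all genes in each. Between untreated genotypes the other pDC markers did not pass. Bst2 differed by 1.05 ± 0.28, Ccr9 by 0.70 ± 0.34 and Siglech by 0.04 ± 0.20. The values of Ly6d, Pacsin1 and Dntt were 0.001 ± 0.15, -0.08 ± 0.15 and -0.02 ± 0.16. No pDC marker changed with SRBC in either genotype. The mean log2 level of the 8 lay at 5.04 to 5.10 in untreated WT, 5.07 to 5.14 in WT SRBC, 5.49 to 5.63 in untreated Notch2-11cKO and 5.51 to 5.77 in Notch2-11cKO SRBC. Of 4 other E protein and Id family genes Tcf12 alone was higher in untreated Notch2-11cKO (0.94 ± 0.21, adjusted p = 0.0228), and none passed in the other comparisons. The part of pDC in the Tcf4 difference was not tested.

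**Figure D2:**
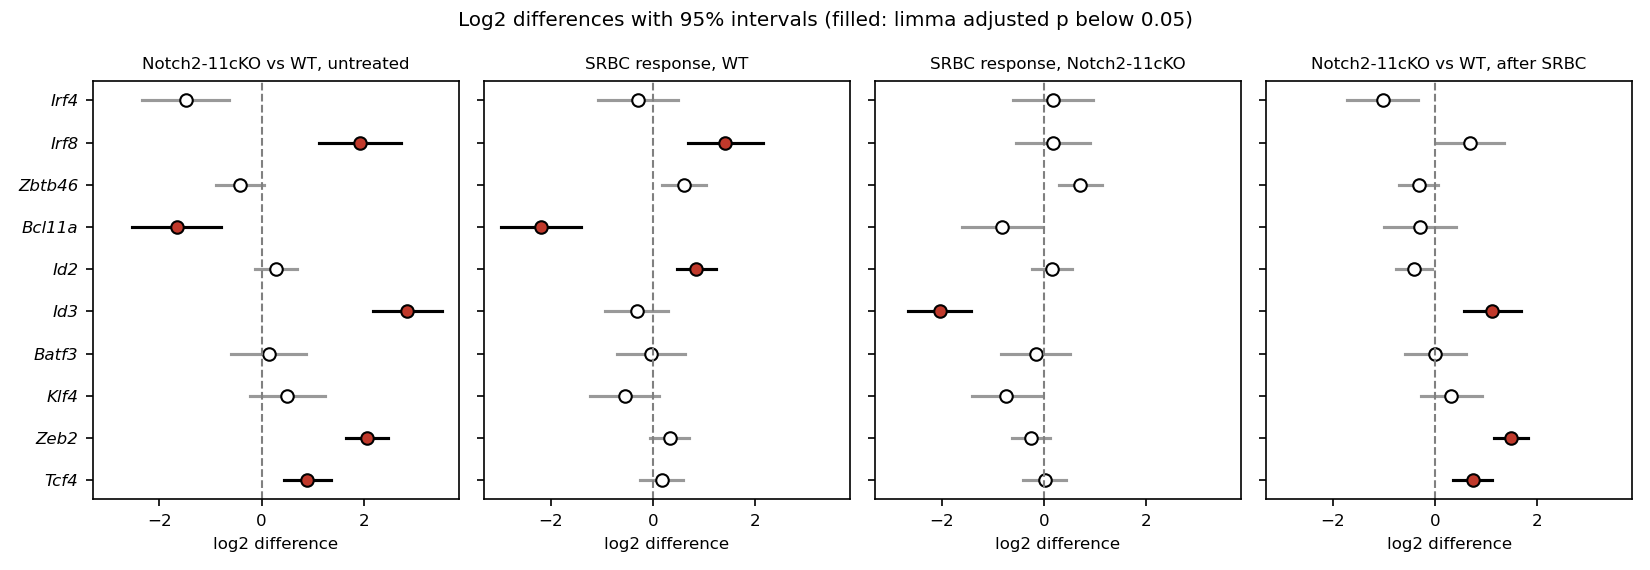
Log2 difference (x axis) of each factor (y axis) in the 4 comparisons of groups, with 95% intervals from limma; filled points passed an adjusted p of 0.05. Zeb2, Id3 and Tcf4 pass in both genotype comparisons, Irf8 and Bcl11a pass between untreated genotypes and in the WT response, Id2 in the WT response and Id3 in the Notch2-11cKO response.

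Irf8 is the interferon regulatory factor whose high levels mark cDC1 and pDC. It read 4.61 and 5.73 in untreated WT, 7.09, 6.13 and 6.54 in WT SRBC, 7.17 and 7.02 in untreated Notch2-11cKO, and 7.47, 7.33 and 7.03 in Notch2-11cKO SRBC. Untreated WT was below all other arrays, with a wide gap between its 2 arrays. The geometric mean intensity there was 35.9, near the array medians of 29.5 to 31.7. Irf8 was 3.81-fold higher in untreated Notch2-11cKO than in untreated WT (1.93 ± 0.36, adjusted p = 0.00957) and rose 2.68-fold with SRBC in WT (1.42 ± 0.33, adjusted p = 0.0393). In Notch2-11cKO it changed by 0.18 ± 0.33 (95% interval -0.55 to 0.91). After SRBC the genotypes overlapped and the difference of 0.69 ± 0.30 did not pass (adjusted p = 0.254), although without both arrays that stood apart it was 1.07 (0.0377). The interaction, -1.24 ± 0.47, did not pass either (adjusted p = 0.67).

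The Irf8 calls rested on few arrays. Without WT untreated 1, the lowest array, the untreated genotype difference was 1.37 (adjusted p = 0.11) and the WT response 0.86 (adjusted p = 0.391). The genotype call was also lost without Notch2-11cKO untreated 1 (0.0844) or 2 (0.0548). The WT response was also lost without WT SRBC 1 (0.0538) or 3 (0.0984), Notch2-11cKO untreated 1 (0.0643) or 2 (0.0645), and Notch2-11cKO SRBC 1 (0.0569) or 2 (0.0577). With the replicate number as a block its adjusted p was 0.0532, and with only the WT groups in the fit 0.101.

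Irf4 encodes the interferon regulatory factor of cDC2, and it did not pass in any comparison. It read 8.68 and 8.71 in untreated WT, 8.06, 8.78 and 8.37 in WT SRBC, 6.86 and 7.56 in untreated Notch2-11cKO, and 7.16, 6.85 and 8.13 in Notch2-11cKO SRBC. Untreated genotypes did not overlap, and Notch2-11cKO SRBC 3 reached into the WT SRBC range. The difference was -1.49 ± 0.39 without treatment (adjusted p = 0.0528, 95% interval -2.35 to -0.63) and -1.02 ± 0.32 after SRBC (adjusted p = 0.101, -1.72 to -0.32). Without Notch2-11cKO SRBC 3 both passed (adjusted p = 0.00933 and 0.00942). The untreated difference passed under 10 of 22 alternatives, among them without WT SRBC 1 (0.0366) or Notch2-11cKO SRBC 2 (0.042), with quantile normalization (0.0334) and with the replicate number as a block (0.0294). Without both arrays that stood apart the adjusted p was 0.0015 in untreated cells and 0.00121 after SRBC (-1.56). SRBC changed Irf4 by -0.30 ± 0.36 in WT and 0.17 ± 0.36 in Notch2-11cKO, neither past the threshold.

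Batf3, the AP-1 factor that sustains Irf8 in cDC1, did not pass in any comparison. Its arrays read 8.01 and 8.14 in untreated WT, 8.26, 7.72 and 8.15 in WT SRBC, 8.33 and 8.09 in untreated Notch2-11cKO, and 7.83, 8.73 and 7.59 in Notch2-11cKO SRBC. The groups overlapped in every comparison, and the differences lay between -0.16 and 0.14. In the comparisons of groups their 95% intervals reached from -0.83 to 0.87 at the widest. The interaction was -0.13 ± 0.43 (95% interval -1.08 to 0.81). A change within these bounds could not be told from none.

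Genes of cDC1, in which Irf8 and Batf3 act together, moved both ways. Of 9 cDC1 markers, Clec9a (3.00 ± 0.50), Naaa (2.33 ± 0.34) and Cadm1 (1.72 ± 0.22) were higher in untreated Notch2-11cKO and Wdfy4 was lower (-2.01 ± 0.22). In WT cells Xcr1 (1.09 ± 0.22) and Cd8a (0.96 ± 0.21) rose with SRBC and Wdfy4 fell (-0.97 ± 0.20). After SRBC 3 were higher in Notch2-11cKO, among them Naaa (2.24 ± 0.28) and Cadm1 (1.08 ± 0.18), and 2 were lower, Wdfy4 (-1.41 ± 0.18) and Cd8a (-1.01 ± 0.19). The Notch2-11cKO response held none. The median of the 9 was 0.08 in untreated cells, 0.37 in the WT response and -0.09 between genotypes after SRBC. The mean log2 level of the 9 was 5.46 to 5.71 in untreated WT, 5.78 to 5.91 in WT SRBC, 6.11 to 6.25 in untreated Notch2-11cKO and 5.94 to 6.08 in Notch2-11cKO SRBC. It was thus lowest in untreated WT, as Irf8 was, and its part in the Irf8 result was not tested. Of 6 other IRF genes Irf1, which interferons induce, was higher in Notch2-11cKO without treatment (1.50 ± 0.24) and after SRBC (0.93 ± 0.19), and no other IRF passed.

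Bcl11a encodes a zinc-finger factor that B cell and pDC development need. It read 9.41 and 9.30 in untreated WT, 7.84, 6.84 and 6.82 in WT SRBC, 7.61 and 7.76 in untreated Notch2-11cKO, and 7.19, 7.26 and 6.18 in Notch2-11cKO SRBC. Untreated WT stood above all other arrays, which ran from 6.18 to 7.84, and untreated Notch2-11cKO lay above Notch2-11cKO SRBC without overlap. Bcl11a was 3.17-fold lower in untreated Notch2-11cKO (-1.67 ± 0.39, adjusted p = 0.0325) and 4.56-fold lower in WT after SRBC (-2.19 ± 0.36, adjusted p = 0.00722). In Notch2-11cKO the difference with SRBC was -0.81 ± 0.36, which did not pass (adjusted p = 0.486), and the genotypes overlapped after SRBC (-0.29 ± 0.32, adjusted p = 0.733).

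The interaction for Bcl11a was 1.38 ± 0.51 (adjusted p = 0.645), and it passed without both arrays that stood apart (2.06, adjusted p = 0.00107). Its untreated difference did not hold without WT untreated 1 (adjusted p = 0.202) or 2 (0.158) or Notch2-11cKO untreated 1 (0.2) or 2 (0.132). The WT response was lost without WT untreated 1 (0.104) or 2 (0.0673). B cells also carry Bcl11a. Of 8 B cell markers Cd22 (-2.68 ± 0.21) and Ms4a1 (-1.39 ± 0.28) were lower in untreated Notch2-11cKO, and Cd22 fell with SRBC in WT (-1.83 ± 0.19). After SRBC both were lower in Notch2-11cKO (Cd22 by -1.26 ± 0.17 and Ms4a1 by -0.89 ± 0.23), and none changed with SRBC in Notch2-11cKO. The median of the 8 was 0.07 between untreated genotypes, -0.33 in the WT response and -0.05 between genotypes after SRBC. The mean log2 level of the 8 was 4.54 to 4.84 in untreated WT, 4.22 to 4.52 in WT SRBC, 4.20 to 4.39 in untreated Notch2-11cKO and 4.15 to 4.32 in Notch2-11cKO SRBC. Other B cell markers did not pass between untreated genotypes. Cd79b differed by 0.87 ± 0.28, Cd79a by 0.34 ± 0.16 and Pax5 by 0.22 ± 0.13. The values of Fcer2a, Ebf1 and Cr2 were 0.10 ± 0.19, 0.04 ± 0.21 and -0.71 ± 0.24. Over the 10 arrays the B cell receptor genes Cd79a and Cd79b read 2.49 to 3.29 and 5.38 to 7.46. The part of B cells in the Bcl11a differences was not tested.

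Zbtb46, the factor that marks conventional dendritic cells, read 6.30 and 6.67 in untreated WT, 7.12, 7.00 and 7.19 in WT SRBC, 5.97 and 6.17 in untreated Notch2-11cKO, and 6.56, 6.76 and 7.04 in Notch2-11cKO SRBC. SRBC arrays lay above untreated arrays within each genotype without overlap. The responses, 0.61 ± 0.20 in WT (adjusted p = 0.117, 95% interval 0.19 to 1.04) and 0.72 ± 0.20 in Notch2-11cKO (adjusted p = 0.185, 0.29 to 1.15), did not pass. Nor did the genotype differences of -0.42 ± 0.21 and -0.32 ± 0.17 (adjusted p = 0.423 and 0.398).

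Klf4, a zinc-finger factor of cDC2 subsets and monocytes, read 7.88 and 8.03 in untreated WT, 7.49, 7.40 and 7.32 in WT SRBC, 8.49 and 8.43 in untreated Notch2-11cKO, and 8.22, 8.01 and 6.96 in Notch2-11cKO SRBC. Notch2-11cKO SRBC 3 was the lowest array of all. No comparison passed: the responses were -0.55 ± 0.31 in WT and -0.73 ± 0.31 in Notch2-11cKO (adjusted p = 0.413 and 0.454), and the genotype differences 0.51 ± 0.34 and 0.33 ± 0.27 (0.597 and 0.626). Without Notch2-11cKO SRBC 3 the difference after SRBC was 0.71 (adjusted p = 0.0309). Without both arrays that stood apart it was 0.76 (0.00831), and the WT response was -0.60 (0.0296). Over the 22 alternatives the Klf4 response ran from -0.62 to 1.23 in WT and from -0.98 to 0.39 in Notch2-11cKO. Each response changed sign under 1 alternative. Of 10 other KLF genes, Klf9 (1.34 ± 0.20) and Klf10 (1.30 ± 0.30) were higher in untreated Notch2-11cKO and Klf9 (0.76 ± 0.17) and Klf3 (0.78 ± 0.17) after SRBC, with none called in either response.

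Klf4 is also known as an immediate-early gene, and genes of that kind and of heat shock moved with SRBC. Of 21 such genes 11 fell in WT, among them the chaperones Hsph1 (-4.69 ± 0.25) and Dnajb1 (-3.10 ± 0.30), and 4 fell in Notch2-11cKO (medians -1.40 and -0.96). Between genotypes Hsp90aa1 was lower in untreated Notch2-11cKO (-0.65 ± 0.15) and Hspa1a was higher after SRBC (2.00 ± 0.48). The mean log2 level of the 21 was 10.8 and 10.6 in untreated WT, 9.37, 8.88 and 8.92 in WT SRBC, 10.4 and 10.5 in untreated Notch2-11cKO, and 9.80, 9.53 and 8.88 in Notch2-11cKO SRBC. With this mean as a covariate no factor passed in the WT response: Bcl11a was at 0.14 (adjusted p = 0.929), Id2 at 0.37 (0.707) and Irf8 at 2.41 (0.178). The mean differed between untreated and SRBC arrays without overlap, so treatment and this mean cannot be told apart for these 3 genes. In the Notch2-11cKO response Id3 was at -2.04 with the covariate (adjusted p = 0.118). Treatment and the mean cannot be told apart for Id3 either. With the covariate Tcf4 between genotypes after SRBC was at 0.62 (0.0535) and Bcl11a at -0.78 (0.031).

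**Figure D3:**
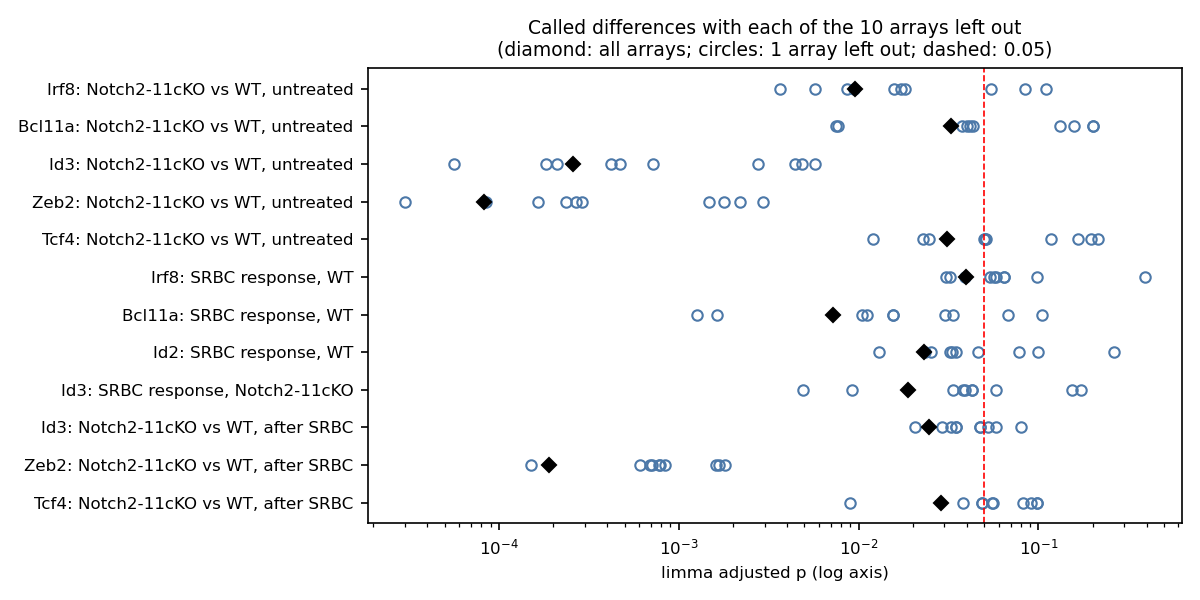
Limma adjusted p (x axis, log scale) of the 12 calls among the 10 factors (y axis), with all arrays (diamonds) and with each of the 10 arrays left out (circles); the dashed line is 0.05. All circles of Zeb2 in both genotype comparisons and of Id3 between untreated genotypes lie left of the line, and each other call has circles on both sides.

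Differences within an array show unequal change of opposing factors, whatever the unit of each probe set. Irf8 minus Irf4 was -4.08 and -2.98 in untreated WT, -0.97, -2.65 and -1.83 in WT SRBC, 0.31 and -0.53 in untreated Notch2-11cKO, and 0.31, 0.48 and -1.10 in Notch2-11cKO SRBC. Untreated WT was lowest and did not overlap any other group, and Notch2-11cKO SRBC 3 reached the WT SRBC range. Zeb2 minus Id2 was -2.10 and -2.15 in untreated WT, -2.54, -2.86 and -2.55 in WT SRBC, -0.49 and -0.21 in untreated Notch2-11cKO, and -0.64, -0.75 and -0.89 in Notch2-11cKO SRBC. The genotypes stood apart on every array, and within each genotype the SRBC arrays were the lower ones. Tcf4 minus Id2 was -2.69 and -2.90 in untreated WT, -3.50, -3.52 and -3.37 in WT SRBC, -2.28 and -2.07 in untreated Notch2-11cKO, and -2.16, -1.97 and -2.83 in Notch2-11cKO SRBC. Here WT SRBC stood below all other arrays, and Notch2-11cKO SRBC 3 lay among the untreated WT arrays.

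**Figure D4:**
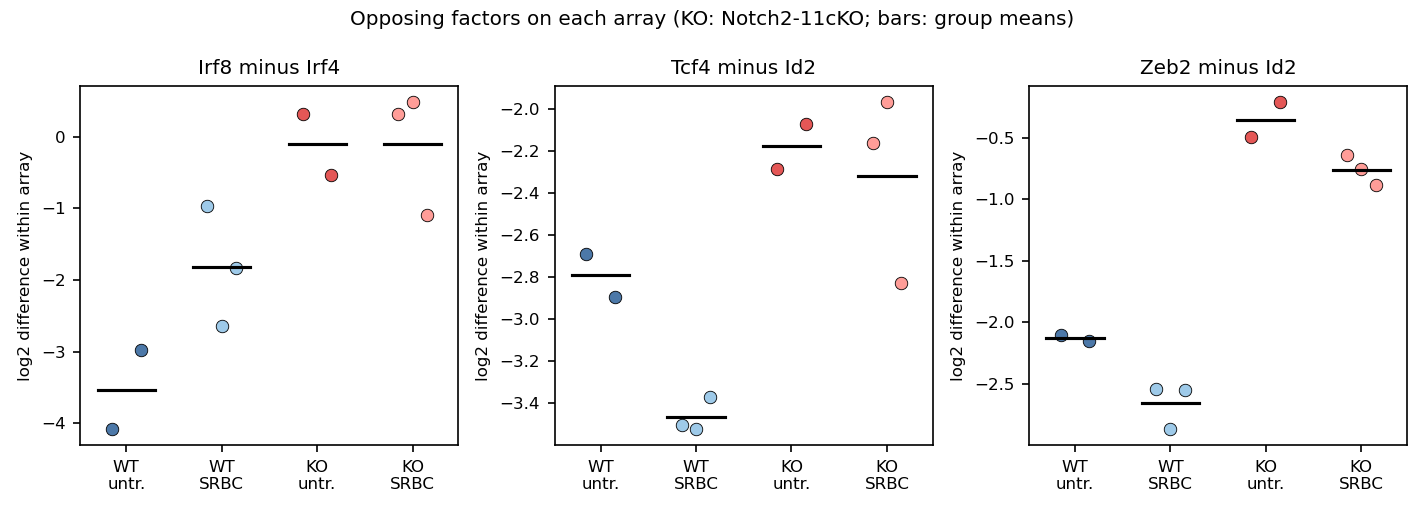
Log2 difference between opposing factors within each array (y axis) by group (x axis); points are arrays and bars are group means. Zeb2 minus Id2 separates the genotypes on every array, and Irf8 minus Irf4 is lowest in untreated WT; only the change between groups can be read, not the level.

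Among other transcription factors of dendritic cells, 26 measured, 3 were higher and 4 lower in untreated Notch2-11cKO, with a median of 0.30 against -0.02 over all genes. Cebpa, a factor of myeloid progenitors and monocytes, was higher (2.20 ± 0.25, adjusted p = 0.00036). Zfp366, which encodes the dendritic cell factor DC-SCRIPT (-1.52 ± 0.20), Runx3 (-1.61 ± 0.25) and the aryl hydrocarbon receptor Ahr (-1.72 ± 0.29) were lower. After SRBC 4 were higher and 6 lower (median -0.18), and those with the smallest adjusted p were Zfp366 (-1.26 ± 0.16), Cebpa (1.55 ± 0.21), Runx3 (-1.12 ± 0.20) and Tbx21 (-0.90 ± 0.18). In the WT response Nfil3, a repressor needed for cDC1 progenitors, rose (1.28 ± 0.21) and Ikzf1 fell (-1.04 ± 0.22; median 0.14 against 0.02 over all genes). None passed in the Notch2-11cKO response.

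Markers of monocytes and macrophages were mostly higher in Notch2-11cKO, as Zeb2, Id3 and Tcf4 were. In the Notch2-11cKO response, however, Id3 fell (-2.04 ± 0.28). No macrophage marker passed in that response, and of the monocyte markers only S100a8 did, and it rose. Of 7 monocyte markers 4 were higher and 1 was lower, Treml4 (-1.40 ± 0.32), in untreated Notch2-11cKO (median 2.24). After SRBC 6 were higher (median 1.71). Ccr2 (4.87 ± 0.35 and 4.29 ± 0.29) and Lyz2 (2.68 ± 0.20 and 2.59 ± 0.16) were among those higher in both comparisons. S100a8 rose with SRBC in WT (2.85 ± 0.46) and in Notch2-11cKO (3.07 ± 0.46). The mean log2 level of the 7 was 6.46 to 6.62 in untreated WT, 6.60 to 6.99 in WT SRBC, 8.41 to 8.57 in untreated Notch2-11cKO and 8.43 to 9.02 in Notch2-11cKO SRBC. Of 9 macrophage markers 6 were higher in Notch2-11cKO without treatment, among them C1qa (2.46 ± 0.21) and C1qc (2.98 ± 0.34), and 6 after SRBC (medians 1.77 and 1.08). Not past the threshold in untreated cells were Adgre1, which went the other way (-0.83 ± 0.37), Spic (1.30 ± 0.47) and Cd5l (1.25 ± 0.43). In WT 3 macrophage markers rose with SRBC, Vcam1 (1.75 ± 0.25), C1qc (1.72 ± 0.31) and Spic (2.11 ± 0.42). The mean level of the 9 was 5.46 to 5.75 in untreated WT, 6.35 to 6.87 in WT SRBC, 7.10 to 7.52 in untreated Notch2-11cKO and 7.36 to 7.88 in Notch2-11cKO SRBC. The part of such cells in the differences of Zeb2, Id3 and Tcf4 was not tested.

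Of 10 cDC2 markers 4 were lower in untreated Notch2-11cKO, among them Clec4a4 (-4.09 ± 0.35), Dtx1 (-2.41 ± 0.33) and Esam (-1.84 ± 0.33), and Cd209a was higher (1.73 ± 0.23). After SRBC 3 were lower and 2 higher in Notch2-11cKO, among them Clec4a4 (-2.91 ± 0.29) and Itgam (1.82 ± 0.17). SRBC lowered 4 in WT, such as Cd209a (-1.83 ± 0.21) and Itgam (-1.44 ± 0.19), and Cd209a alone in Notch2-11cKO (-1.49 ± 0.21). The median of the 10 was -0.34 and -0.28 in the genotype comparisons and -0.93 and -0.24 in the responses. Of 4 T cell markers Cd5 was lower in Notch2-11cKO without treatment (-1.47 ± 0.28) and after SRBC (-1.10 ± 0.23), and of 5 NK cell markers none passed in any comparison.

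Across the 10 arrays, the genes whose log2 pattern was most like each factor were taken from 4195 brighter genes that spanned at least 1 log2 unit. The arrays form 4 groups, so these correlations describe shared group patterns. Zeb2 was closest to Dock1 (Pearson r = 0.994), the chemokine Ccl6 (0.993) and fibronectin, Fn1 (0.991). Tcf4 was closest to the chemokines Cxcl9 (0.980) and Cxcl13 (0.977) and to Srgap2 (0.977). Id3 was closest to Mrps6 (0.968), the lectin Cd209c (0.964) and Daglb (0.959). Bcl11a was closest to Exoc6 (0.988), the kinase Mapk14 (0.986) and Atad2 (0.978), and Irf8 to Atrnl1 (0.989), Rbpms (0.954) and Pfkfb3 (0.947). Irf4 was closest to the transglutaminase Tgm2 (0.956), the lamin Lmnb1 (0.955) and Ahr (0.955). Zbtb46 was closest to Tnfaip8 (0.956), Sema7a (0.940) and Fbxo11 (0.940), Id2 to Ppfibp2 (0.950), Pwp1 (0.945) and Cul2 (0.942), and Klf4 to Rpia (0.954), Ap1b1 (0.953) and Letmd1 (0.946). Batf3 had no close match, with Tatdn3 (0.766), Coa6 (0.751) and Prune1 (0.746) nearest.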

How the data were processed

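Spleens were digested with collagenase and DNase, CD11c+ cells enriched and cDC2 sorted, and RNA was labelled for Affymetrix arrays, per the labels' protocols. The authors' deposited table holds intensity values that are linear, not log, as their range shows. No source used here gives a normalization method; array medians of 29.5 to 31.7 were alike. Precision is limited by the number of arrays. Values were log2 transformed with no pseudocount and no filter. For each gene the probe set with 1 symbol and the highest mean was used (19938 genes from 21789 of 28853 probe sets; 1621 had several symbols and 5443 none). limma 3.58.1 in R 4.3.3 fitted a mean per group (lmFit; eBayes let the prior variance follow the mean level; degrees of freedom 6 residual, 5.25 prior), two-sided, with Benjamini-Hochberg adjustment over all genes and a threshold of 0.05. The script was tested on simulated data.

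All 10 factors were described in every comparison; of 13 other gene lists (127 of 136 genes measured) up to 4 genes past the threshold with the smallest adjusted p per comparison were named, and the 3 genes most correlated with each factor among those above the median level that spanned log2 1, without predicted genes or clones. Alternatives were another probe rule, a level filter, quantile or median scaling, an offset, other variance models, array weights, a replicate block, a covariate and arrays left out. Markers of B cells, pDC and macrophages not past the threshold between untreated genotypes were also given, as was the monocyte marker called lower there. Members and lists were chosen with earlier results of these data known. Promoters came from RefSeq tables (GRCm38.p6); 9 factors were searched. Python 3.11.15, pandas 2.3.3 and matplotlib 3.10.9 were used.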

Additional observations from a re-analysis of the deposited data

How the results depend on the processing

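Of 1090 values of the 10 factors under 21 or 22 alternatives in 5 comparisons, 965 kept their side of the threshold and stayed within 1 standard error with the same sign when uncalled, 48 calls were lost, 20 were gained and 1 reversed (Bcl11a in the WT response, 0.14 with the immediate-early and heat shock mean as a covariate, adjusted p = 0.929; the cause was not tested). Another 40 uncalled values changed sign and 16 moved by more than 1 standard error. With that covariate the number of factors called was 0 in the WT and 0 in the Notch2-11cKO response, where 49 and 4 of 19938 genes were called. With only the groups compared it was 0 in the Notch2-11cKO response and 1 between genotypes after SRBC, beside 23 and 627 of all genes. Without both arrays that stood apart it was 6 between genotypes after SRBC and 2 in the interaction (Bcl11a and Id3). Calls over all genes also rose there, from 1061 to 2364 and from 4 to 604. Leaving out 1 array gave between 2 and 6 factors between untreated genotypes, 0 to 3 in the WT response, 0 to 1 in the Notch2-11cKO response, 1 to 5 between genotypes after SRBC and 0 in the interaction. With the replicate number as a block, 6, 2, 1, 3 and 0 factors passed. The labels tie same-numbered arrays by number only. Deviations from group means of same-numbered arrays correlated between -0.22 and 0.48. Between WT SRBC and Notch2-11cKO SRBC arrays the values were 0.48 for replicate 1, -0.22 for replicate 2 and 0.40 for replicate 3. Whether such arrays share a batch was not tested. The block took all genes called between untreated genotypes from 1019 to 1175. A fit of only the groups compared does not apply to the interaction.

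Over all genes, the number called ranged from 418 to 1996 (1019 in the main analysis) between untreated genotypes, 49 to 2300 (756) in the WT response, 2 to 398 (61) in the Notch2-11cKO response, 627 to 2364 (1061) between genotypes after SRBC and 0 to 604 (4) in the interaction. The lowest counts came without WT untreated 1, with the covariate, without Notch2-11cKO untreated 1, with only the groups compared and without WT untreated 1, and the highest without both arrays that stood apart. A lone array left in a group was assumed to vary like the other groups. The table used holds no background values, so no limit of detection is given.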
